A study of Homo sapiens with 4 samples.

Results

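Caveolae are small flask-shaped pits of the plasma membrane. The genes described here encode 6 proteins of their coat and neck, and were measured in A375, an established melanoma line of human origin. They were taken by name from the deposited table of 60595 genes: the caveolins CAV1 and CAV2, the cavins CAVIN1 and CAVIN3, and the neck and curvature proteins EHD2 and PACSIN2. All 6 were present under these symbols, and all 6 reached 1 FPKM in at least 2 libraries, as did 15511 genes in all, which were the genes tested. FPKM is fragments scaled for transcript length and library size, so that levels of different genes can be set side by side.

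Caveolin 1 inserts into the membrane as oligomers and brings cholesterol with it, and without it non-muscle cells form no caveolae. Caveolin 2 enters these oligomers. Cavin 1 polymerizes on the caveolin scaffold from the cytosolic side and is needed to shape the pit, and other cavins join it. EHD2, an ATPase, sits at the neck and holds the pit at the surface, while PACSIN2, an F-BAR protein also called syndapin 2, bends the membrane there. When the membrane is stretched, caveolae flatten and release cavins.

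The cells are labelled wild type and were grown in DMEM medium with serum. One group was exposed to Paroxetine Hydrochloride (labelled PH) and the other to DMSO, the solvent control, with 2 libraries per group. Paroxetine blocks the serotonin transporter and is a cationic amphiphilic compound. The sources used here do not give the dose, the time of exposure or whether separate cultures were used, so the p-values cover the spread between these libraries alone, which may be technical. The labels name a single line, A375, and its lineage gene SOX10 stood at 181 to 275 FPKM, while the pigment genes PMEL, MLANA, TYR, DCT and TYRP1 stayed under 1 FPKM in every library. The FPKM values summed to 606197 to 655607 per library. The table gives no read numbers, and the relative depth of the libraries, estimated from the values of low genes, lay between 0.859 and 1 with DMSO replicate 1 set to 1.

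CAV1 and CAVIN1 fell in the paroxetine libraries, and CAV2, CAVIN3, EHD2 and PACSIN2 did not pass the test. Genes were called at an adjusted p under 0.05 in limma's moderated test on log2(FPKM + 1), a scale on which the change of low genes is understated, with Benjamini-Hochberg adjustment over all tested genes. Of the 6 genes 2 were called lower and 0 higher, where 20.5% of all tested genes were called lower and 18.1% higher. At an unadjusted p under 0.05 the same 2 genes were lower and 0 higher, where 25.6% of all tested genes were lower and 23.4% higher at that threshold. Called in either direction were 38.6% of all tested genes. Set against these shares, the count does not single the 6 genes out. The median log2 change was -0.20 over the 6 genes and -0.0047 over all genes tested.

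CAV1, the principal caveolin (ENSG00000105974, chromosome 7, 116524785 to 116561184, plus strand), was at 171 and 159 FPKM with DMSO and at 41.6 and 39.9 FPKM with paroxetine. The groups lay far apart, and the libraries within each were close together. The mean fell from 165 ± 8.44 to 40.8 ± 1.19 FPKM (SD, n = 2 libraries per group), 4.05-fold lower. The log2 change was -1.99 ± 0.06 (SE, limma, adjusted p = 0.000189), with a 95% confidence interval of -2.15 to -1.84. By this change CAV1 ranked 51 from the largest fall among the 15511 tested genes, and 4.41% of tested genes were called lower with a fall of at least 2-fold. Its level ranked above 96.9% of tested genes in the DMSO libraries and above 84.2% in the paroxetine libraries. In bulk RNA, fewer cells that express a gene and less RNA per cell cannot be told apart.

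CAV2 (ENSG00000105971, chromosome 7, 116287380 to 116508541, plus strand) was at 23.4 and 17.7 FPKM with DMSO and at 19.4 and 16.3 FPKM with paroxetine. The groups overlapped, and the DMSO libraries differed from each other more than the group means did. Its log2 change was -0.18 ± 0.16 (limma, adjusted p = 0.399) with a 95% interval of -0.58 to 0.21, which leaves out a fall of the size seen for CAV1. CAV1 therefore made up 88.0% and 90.0% of the summed CAV1 and CAV2 FPKM with DMSO, against 68.2% and 71.0% with paroxetine. Without DMSO replicate 1 the difference of CAV2 was 0.0067.

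**Figure D1:**
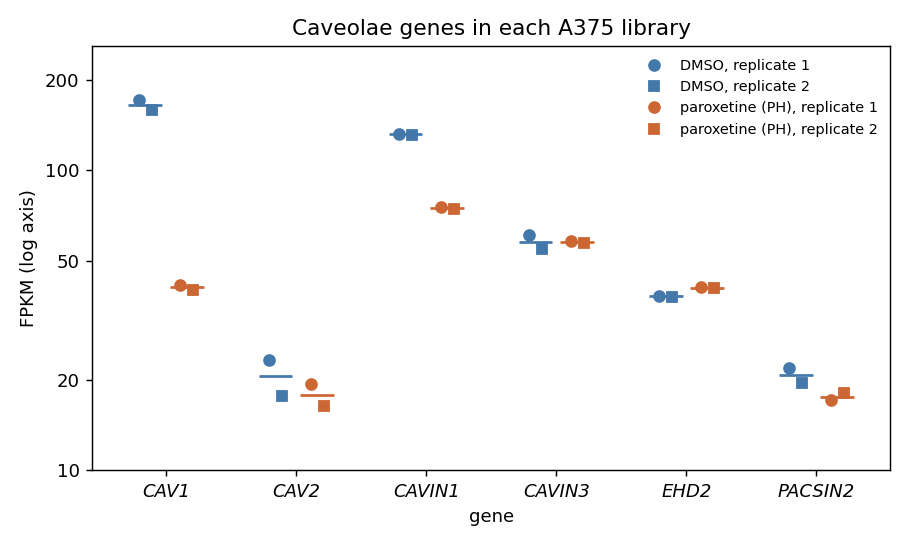
FPKM on a log axis of the 6 caveolae genes in each library, with DMSO in blue, paroxetine in orange, circles for replicate 1, squares for replicate 2 and a line at each group mean. CAV1 drops from 171 and 159 to 41.6 and 39.9 FPKM and CAVIN1 from 133 and 132 to 75.7 and 74.6 FPKM, while the points of CAV2 and CAVIN3 overlap between groups.

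CAV1 and CAV2 are neighbours on chromosome 7 and are read from the same strand. The start of CAV1 lies 25271 bases beyond that of CAV2 in RefSeq (GRCh38.p14). The 250 bases before each start are shown because these neighbours ended at different levels relative to DMSO. RefSeq lists further starts for both genes, and the most upstream of those in the table was taken for each. The location given above for CAV2 is from GENCODE and begins at 116287380, far before the RefSeq start used here, 116499738. No window was taken at that GENCODE start, and the spacing of 25271 bases holds for the RefSeq starts alone. Capitals mark GC boxes, the letters GGGCGG on either strand, which factors of the Sp and KLF families can bind. None of the marked boxes overlaps another. The window of CAV1 is chr7:116524759-116525008 and that of CAV2 is chr7:116499488-116499737, both on the plus strand. The GENCODE location of CAV1 begins at 116524785, inside the window shown for CAV1. Most of that window, with its marked GC boxes, thus lies within CAV1 as GENCODE places it.
CAV1: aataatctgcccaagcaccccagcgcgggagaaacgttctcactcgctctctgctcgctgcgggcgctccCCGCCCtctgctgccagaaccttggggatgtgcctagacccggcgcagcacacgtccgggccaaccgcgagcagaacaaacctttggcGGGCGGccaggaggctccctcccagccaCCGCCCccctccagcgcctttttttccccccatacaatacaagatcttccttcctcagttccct
CAV2: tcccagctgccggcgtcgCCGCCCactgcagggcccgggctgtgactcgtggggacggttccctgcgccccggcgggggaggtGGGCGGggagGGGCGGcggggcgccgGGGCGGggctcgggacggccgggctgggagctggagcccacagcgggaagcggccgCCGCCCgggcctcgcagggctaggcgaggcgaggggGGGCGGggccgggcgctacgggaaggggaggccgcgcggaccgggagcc

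The CAV1 window held 3 GC boxes and the CAV2 window 6, and 42.6% of 35116 promoter windows of the same length held at least 1. The CAV1 window was 63.6% G or C with 18 CG dinucleotides, and the CAV2 window 83.2% with 35. The median over all windows was 58.0% G or C and 11 CG dinucleotides. Neither window held a CCAAT box (CCAAT, in 32.0% of all windows), the TEAD motif CATTCC (11.9%), the AP-1 motif TGANTCA (6.57%) or the E-box CACGTG (6.34%), each searched on both strands. These counts depend on the start taken: the windows of the other CAV1 starts held 3 and 2 GC boxes (63.2% and 73.2% G or C), and that of the other CAV2 start held 3 (70.0%). Promoter windows were at hand for 4 of the 6 genes and not for CAVIN1 or CAVIN3.

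The protein-coding genes on either side of this pair were looked at after the values of CAV1 were known. TES, a gene of focal adhesions that lies before CAV2, was at 33.0 and 32.0 FPKM with DMSO and at 31.6 and 31.9 FPKM with paroxetine. MET, which encodes a receptor tyrosine kinase and lies beyond CAV1, was at 43.5 and 47.8 FPKM with DMSO and at 37.7 and 39.0 FPKM with paroxetine. The log2 change of TES was -0.03 ± 0.06 (limma, adjusted p = 0.726) and its direction flipped under quantile normalization (0.03) and rescaling without mitochondrial and abundant RNAs (0.02). That of MET was -0.24 ± 0.07 (adjusted p = 0.0478), a call that was lost under 11 of 12 alternatives (adjusted p 0.0362 to 0.184). In this stretch CAV1 thus showed the largest fall of the 4 genes.

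Of the cavins, CAVIN1 fell and CAVIN3 did not pass the test. CAVIN1 (ENSG00000177469, chromosome 17, 42402452 to 42423517, minus strand), also known as PTRF, was at 133 and 132 FPKM with DMSO and at 75.7 and 74.6 FPKM with paroxetine. The libraries of a group were nearly equal and the groups did not overlap. Of all tested genes, 71.6% had groups that did not overlap. The mean fell from 132 ± 0.652 to 75.1 ± 0.812 FPKM (SD, n = 2), 1.76-fold lower. The log2 change was -0.81 ± 0.05 (limma, adjusted p = 0.000536), with a 95% interval of -0.93 to -0.68 that does not reach the interval of CAV1.

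CAVIN3 (ENSG00000170955, chromosome 11, 6318946 to 6320647, minus strand), also known as PRKCDBP, which in cells associates with CAVIN1 and links caveolae to kinase signalling, was at 60.8 and 54.8 FPKM with DMSO and at 58.1 and 57.5 FPKM with paroxetine. The paroxetine libraries lay between the DMSO libraries. Its log2 change was 0.0017 ± 0.07 (limma, adjusted p = 0.988) with a 95% interval of -0.18 to 0.18. Its exons share 557 of 1672 bases with the processed transcript AC068733.3 on the opposite strand, which was at 11.4 to 14.6 FPKM. Whether the authors counted by strand is not stated in the sources used here, so part of the signal can belong to the partner. CAVIN1 made up 68.6% and 70.6% of the summed FPKM of both cavins with DMSO and 56.6% and 56.5% with paroxetine.

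**Figure D2:**
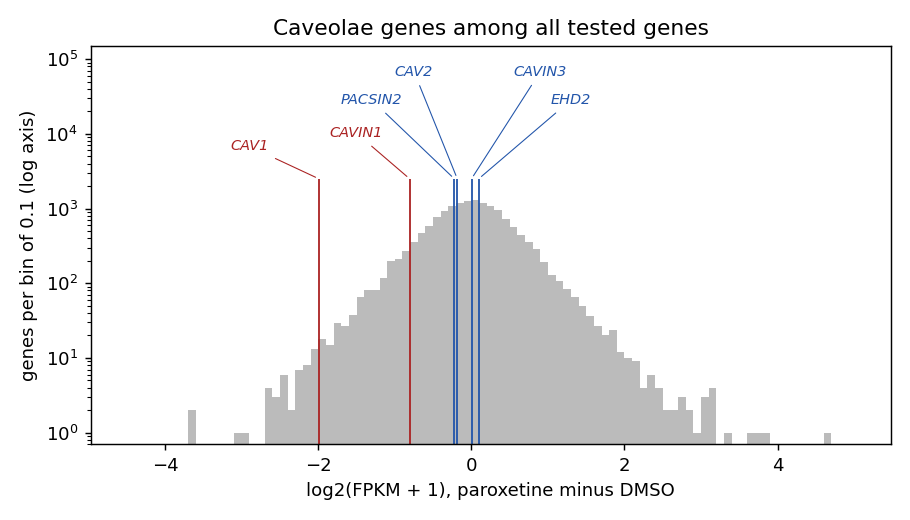
Histogram of the log2(FPKM + 1) difference, paroxetine minus DMSO, over the 15511 tested genes (bins of 0.1, log axis of gene number), with lines at the caveolae genes, red where called. CAV1 at -1.99 lies in the thin left tail and CAVIN1 at -0.81 on the left flank, while the other 4 genes lie between -0.22 and 0.10 in the body of the distribution.

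The neck and curvature proteins did not pass the test. EHD2 (ENSG00000024422, chromosome 19, 47713343 to 47743134, plus strand) was at 38.2 and 37.8 FPKM with DMSO and at 40.8 and 40.5 FPKM with paroxetine. Both paroxetine libraries lay above both DMSO libraries, by little, and the groups were likewise apart in 71.6% of all tested genes. Its log2 change was 0.10 ± 0.06 (limma, adjusted p = 0.253) with a 95% interval of -0.05 to 0.25. The change was 0.16 under quantile normalization and 0.15 when mitochondrial and abundant RNAs were left out of the scaling, and EHD2 was called under neither (adjusted p 0.0936 to 0.441 across all 12 alternatives).

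PACSIN2 (ENSG00000100266, chromosome 22, 42835412 to 43015145, minus strand) was at 22.0 and 19.5 FPKM with DMSO and at 17.1 and 18.1 FPKM with paroxetine. Both paroxetine libraries were below both DMSO libraries, and in 71.6% of all tested genes the groups were likewise apart. The log2 change of PACSIN2 was -0.22 ± 0.09 (limma, adjusted p = 0.116) with a 95% interval of -0.46 to 0.01. Without DMSO replicate 1 the change was -0.14. Its exons share 155 of 4554 bases with ARFGAP3, a gene of Golgi transport on the same strand, which rose from 15.9 ± 2.54 to 31.5 ± 0.749 FPKM (log2 change 0.95 ± 0.12, adjusted p = 0.00326). The effect of this overlap on the value of PACSIN2 was not tested.

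The order of levels changed with these falls. In the DMSO libraries CAV1 was highest, followed by CAVIN1, CAVIN3 and EHD2, with no overlap between neighbours in this order, and then by PACSIN2 and CAV2, whose ranges overlapped. In the paroxetine libraries CAVIN1 was highest and CAVIN3 next, CAV1 at 39.9 to 41.6 FPKM overlapped EHD2 at 40.5 to 40.8 FPKM, and CAV2 and PACSIN2 again overlapped. The 6 genes summed to 448 and 421 FPKM with DMSO and to 253 and 247 FPKM with paroxetine. CAV1 held 38.2% and 37.9% of this sum with DMSO and 16.5% and 16.2% with paroxetine.

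Ratios taken within a library do not depend on how libraries were scaled to each other. The ratio of CAVIN1 to CAV1 was 0.774 and 0.826 with DMSO and 1.82 and 1.87 with paroxetine, so that CAV1 was the higher of the pair with DMSO and CAVIN1 with paroxetine. The ratio of EHD2 to CAV1 was 0.223 and 0.237 with DMSO and 0.980 and 1.02 with paroxetine. The ratio of CAV2 to CAV1 was 0.137 and 0.111 with DMSO and 0.467 and 0.409 with paroxetine, and that of PACSIN2 to CAV1 was 0.128 and 0.122 and then 0.411 and 0.453. Between the cavins, CAVIN3 to CAVIN1 was 0.458 and 0.416 with DMSO and 0.768 and 0.771 with paroxetine. Of the 5 ratios 4 have CAV1 as denominator and so restate its fall. An exact two-sided permutation test over libraries gave p = 0.333 for each (also 0.333 adjusted over the 5), the smallest p that 2 libraries against 2 allow, so these differences could not pass a threshold of 0.05. On the log2 scale, with 1 added to each FPKM value, the ratio of CAVIN1 to CAV1 differed by 1.19 and that of CAVIN3 to CAVIN1 by 0.81. The permutation test used such log2 ratios, and the added 1 makes them depend slightly on scaling.

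**Figure D3:**
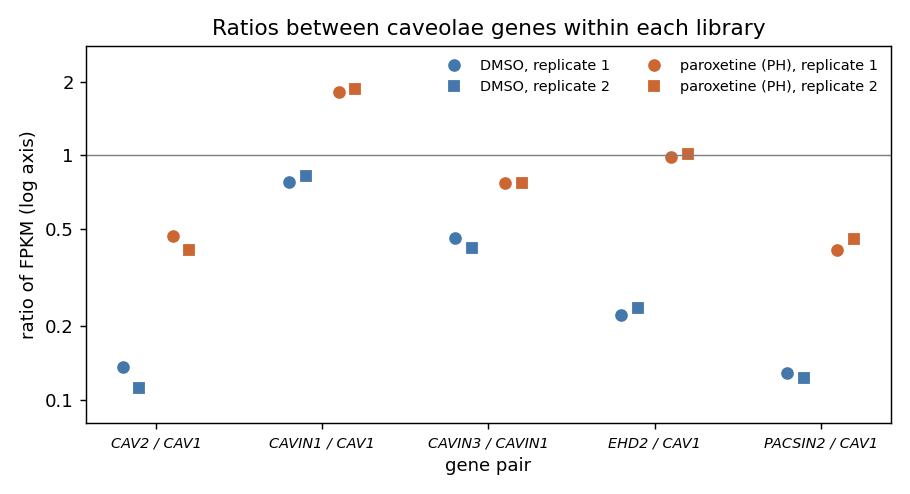
Ratio of FPKM between pairs of caveolae genes within each library, on a log axis, with DMSO in blue, paroxetine in orange, circles for replicate 1 and squares for replicate 2. CAVIN1 to CAV1 is at 0.774 and 0.826 with DMSO, below the line at 1, and at 1.82 and 1.87 with paroxetine, and each of the other 4 ratios is also higher in both paroxetine libraries.

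Among relatives of the 6 proteins, EHD4 and PACSIN3 fell and the other tested relatives were not called. CAV3, the muscle caveolin, stayed under 1 FPKM, CAVIN2 was listed at 0 in every library, and the brain form PACSIN1 was at 0.0250 and 0.0259 FPKM with DMSO and listed at 0 with paroxetine. CAVIN4, the muscle cavin, was at 0.557 and 0.650 FPKM with DMSO and at 1.20 and 0.987 FPKM with paroxetine, below the filter. Of the 8 relatives listed 4 were tested, of which 2 were called lower and 0 higher (2 lower and 0 higher also at an unadjusted p under 0.05), against 20.5% lower and 18.1% higher of all tested genes. Their median log2 change was -0.25. EHD4, a relative of EHD2 in endosomal recycling, fell from 30.3 and 31.0 to 22.5 and 22.2 FPKM, a log2 change of -0.44 ± 0.07 (limma, adjusted p = 0.00631). PACSIN3 fell from 33.6 and 34.2 to 25.4 and 26.3 FPKM (log2 change -0.38 ± 0.07, adjusted p = 0.00962), and its call was lost without DMSO replicate 1 (adjusted p = 0.0529), DMSO replicate 2 (0.0598) or paroxetine replicate 1 (0.0551), which left 1 relative called, with adjusted p from 0.00665 to 0.0598 across all 12 alternatives. EHD1 (20.8 to 19.0 FPKM) and EHD3 (18.3 to 19.8 FPKM) did not pass the test.

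Among 17 genes of caveola partners and scission, 12 were tested, of which 2 were higher, 2 lower and 8 not called, against 18.1% higher and 20.5% lower of all tested genes. Their median log2 change was 0.10. FLNA, which encodes filamin A, a link between caveolae and actin, fell from 260 and 270 to 184 and 206 FPKM (log2 change -0.44 ± 0.07, limma, adjusted p = 0.00736), a change of -0.25 under quantile normalization. FLOT1, a flotillin of membrane domains outside caveolae, fell from 31.7 to 22.2 FPKM, while its partner FLOT2 was at 33.7 and 37.9 FPKM and not called. DNM2, the dynamin that pinches vesicles from the membrane, was at 72.3 to 73.5 FPKM with DMSO and at 71.9 to 74.1 FPKM with paroxetine, and the sign of its difference changed without DMSO replicate 2 or paroxetine replicate 2.

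Of the Src family kinases, which can phosphorylate caveolin 1, FYN rose from 11.7 and 11.6 to 16.6 and 17.8 FPKM (log2 change 0.52 ± 0.09, limma, adjusted p = 0.00860), and SRC was at 22.0 and 25.1 FPKM and not called. RAB5A, a GTPase of early endosomes, rose from 36.2 and 43.2 to 59.1 and 54.7 FPKM (log2 change 0.51 ± 0.10, adjusted p = 0.0137). The call of RAB5A was lost without DMSO replicate 1 (limma, adjusted p = 0.0540), paroxetine replicate 1 (0.0805) or paroxetine replicate 2 (0.0523), with adjusted p from 0.0085 to 0.0805 across all 12 alternatives. ABL1, ARF6, STX6, INSR and ROR1, a receptor-like kinase that holds caveolin 1 and cavin 1 together, were not called. ROR1 passed the filter through the paroxetine libraries alone, at 1.06 and 1.25 FPKM against 0.821 and 0.797 FPKM with DMSO. FLNC, NOS3, NOSTRIN, PLVAP and CD36 were under 1 FPKM. Of the 4 calls in this list 1 remained without DMSO replicate 2, where FLNA, FYN and FLOT1 were lost, and 1 without paroxetine replicate 2, where FYN, RAB5A and FLOT1 were lost.

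**Figure D4:**
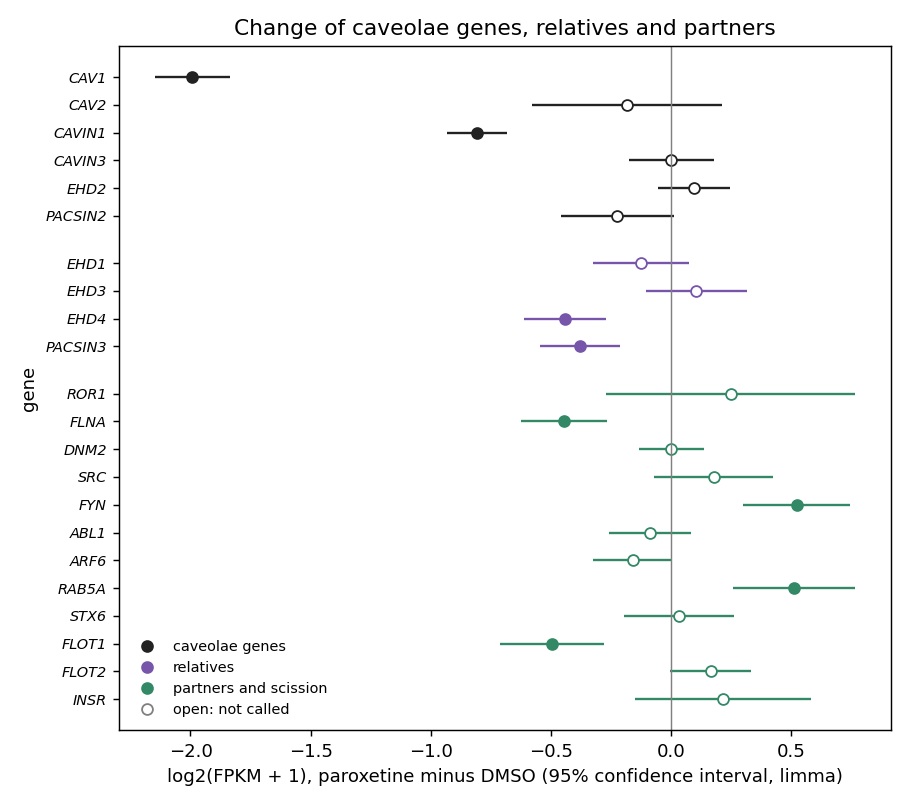
Difference in log2(FPKM + 1), paroxetine minus DMSO, with its 95% confidence interval from limma, for the 6 caveolae genes (black), 4 tested relatives (purple) and 12 tested partners (green). Filled points passed the test. CAV1 at -1.99 and CAVIN1 at -0.81 lie farther from 0 than every relative and partner plotted, whose differences run from -0.49 to 0.52.

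Genes of clathrin-coated pits, the other main route of vesicle formation at the plasma membrane, were called in both directions. Of 27 listed 25 were tested, with 5 higher, 6 lower and 14 not called, against 18.1% higher and 20.5% lower of all tested genes. Their median log2 change was 0.06. AP2S1, the small subunit of the AP2 adaptor, fell from 191 and 177 to 93.2 and 115 FPKM. HIP1, which encodes a clathrin-binding protein, fell from 14.2 and 13.9 to 7.58 and 7.17 FPKM. The scaffold gene ITSN2 rose from 19.7 and 18.9 to 29.2 and 27.6 FPKM, and SNAP91, a neuronal clathrin adaptor, from 0.0833 and 0.351 to 1.79 and 1.97 FPKM, a gene that passed the filter through the paroxetine libraries alone. The number of calls in this list was 5 without DMSO replicate 1, 6 without DMSO replicate 2 and 7 without either paroxetine replicate 1 or paroxetine replicate 2, and SNAP91 was lost in all of these except without DMSO replicate 2. With limma without the mean-variance trend it was 7.

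Other BAR domain proteins, which bend membranes as PACSIN2 does, were also called in both directions. Of 22 listed 19 were tested, with 6 higher, 3 lower and 10 not called, against the same background shares of 18.1% and 20.5%, and a median log2 change of 0.03. BAIAP2, of the inverse BAR class that shapes protrusions, rose from 8.86 and 10.2 to 24.2 and 23.5 FPKM, SRGAP3 from 0.825 and 0.725 to 3.97 and 3.49 FPKM, through the paroxetine libraries alone as to the filter, and FCHSD1 from 12.0 and 6.78 to 26.7 and 26.0 FPKM. GAS7 (ENSG00000007237, listed in the deposited table under the symbol AC005747.1) fell from 22.5 and 18.4 to 8.49 and 10.7 FPKM. The call of FCHSD1 was lost without paroxetine replicate 1 (adjusted p = 0.0578) or replicate 2 (0.0537), with adjusted p from 0.00474 to 0.0578 across all 12 alternatives.

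Genes nearest in pattern to CAV1 and CAVIN1 were sought among tested genes with a symbol, leaving out clone, LINC and LOC names. The measure was the Euclidean distance between log2(FPKM + 1) values of the 4 libraries, after subtraction of each gene's DMSO mean. Nearest to CAV1 were IGFBP4, which encodes a binding protein of insulin-like growth factors (distance 0.0317), the chemokine gene CCL2 (0.0662) and the kinetochore gene ZWINT (0.0793). IGFBP4 was at 129 and 122 FPKM with DMSO and at 31.6 and 29.6 FPKM with paroxetine. Nearest to CAVIN1 were TOMM34 (distance 0.0294), CFL1, which encodes the actin-severing protein cofilin (0.0316), and FRMD6 (0.0318). CFL1 was at 1161 and 1161 FPKM with DMSO and at 654 and 657 FPKM with paroxetine. With 4 libraries in 2 groups such likeness says little more than that the falls were of like size.

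Lists of markers of other cell types were summed in each library. Of 7 fibroblast markers 2 were tested, and the summed FPKM of the list was 7.90 and 9.73 with DMSO and 12.9 and 12.3 with paroxetine, with COL1A2 listed at 0 throughout. PDGFRB, a receptor of stromal cells, was called higher (2.67 to 4.73 FPKM, limma, adjusted p = 0.0485), a call lost under 7 of the 11 alternatives that tested it (adjusted p 0.0449 to 0.187), and the matrix gene LUM was at 4.00 and 5.81 FPKM and not called. Of 6 endothelial markers KDR alone was tested, and the list summed to 4.60 and 4.40 FPKM with DMSO and 3.04 and 3.36 FPKM with paroxetine, with PECAM1, CDH5 and VWF each under 1 FPKM. Of 4 immune markers LYZ alone was tested, and the sums were 1.57 and 2.39 and then 1.35 and 1.22 FPKM, with PTPRC, CD3E and CD14 each under 1 FPKM. LYZ passed the filter through the DMSO libraries alone, at 1.28 and 1.85 FPKM against 0.983 and 0.882 FPKM with paroxetine. Of 5 keratinocyte markers KRT14 was lower and KRT10 higher, with sums of 32.5 and 27.4 and then 34.6 and 39.7 FPKM, and DSG3 at 0. KRT10, a keratin of differentiated epidermis, made up most of these sums, at 28.7 and 21.3 FPKM with DMSO and at 33.6 and 38.7 FPKM with paroxetine, and its call was lost under 7 of 12 alternatives (limma, adjusted p 0.0298 to 0.197; 0.0464 with all libraries). Without DMSO replicate 2 its log2 change was 0.32, against 0.52 with all libraries. Among 8 melanoma lineage markers 3 were tested, and SOX10 rose from 187 to 273 FPKM, S100B fell from 5.88 to 2.30 FPKM and MITF was at 7.48 and 5.67 FPKM and not called. The call of S100B was lost with no filter (limma, adjusted p = 0.0537), without DMSO replicate 2 (0.0835) or without paroxetine replicate 1 (0.0642), with adjusted p from 0.00828 to 0.0835 across all 12 alternatives. The sums of this list were 205 and 197 and then 283 and 281 FPKM, and SOX10 alone made up most of each. The part of these shifts in the falls of CAV1 and CAVIN1 was not tested.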

How the data were processed

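RNA sequencing of 4 A375 libraries (2 DMSO, 2 Paroxetine Hydrochloride) was used as 1 table of FPKM values that the authors deposited. Per the submitters' processing notes, CASAVA 1.4, HISAT2 2.1.0 and Cufflinks 2.2.1 were used with hg38. The sources used here do not state the annotation release, the options, the scaling between libraries or the use of strand. A directional kit is named, with both ribosomal RNA depletion and poly(A) fractions. FPKM columns were assigned to the 4 libraries through their titles. A further 12 per-sample columns, of confidence bounds and status, have headings that match no sample title. They were left out, so bounds and status were not consulted for any gene. Symbols turned into dates (27) were restored by identifier. Locations are GENCODE release 29 (GRCh38), which held 58520 of the genes. Promoter sequences are RefSeq GRCh38.p14.

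A gene was tested if at least 2 libraries reached 1 FPKM (15511 genes). The log2(FPKM + 1) values were fitted in limma 3.58.1, using its mean-variance trend (2 residual and 3.32 prior degrees of freedom), two-sided, with Benjamini-Hochberg adjustment over all of them. The fit was run on simulated independent normal values, with far fewer changed genes than were called here. That run checks the code and not the calls in these data. Alternatives were trimmed-mean scaling, quantile normalization, rescaling without mitochondrial and abundant RNAs, no trend, no filter, a minimum of 5 FPKM, a pseudocount of 0.1, a replicate block and each library left out. The members and lists were chosen with earlier results of these data known. Named were the 6 genes, tested relatives and partners, up to 4 called genes with the largest change and no overlap between groups in each further list, and the 3 genes nearest to CAV1 and to CAVIN1. Listed genes below the filter, neighbouring or overlapping genes, and cell markers were named besides these. Some results are not reported here, and their genes are left out of the list counts. The software was Python 3.11.15 and R 4.3.3.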

Additional observations from a re-analysis of the deposited data

How the results depend on the processing

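Over 12 alternatives CAV1 and CAVIN1 remained called lower, with log2 changes of -2.04 to -1.86 (limma adjusted p up to 0.0114) and -0.82 to -0.66 (up to 0.0138), and the other 4 genes were not called in any. Where the sign changed, the gene was not called: leaving out each library gave -0.38 to 0.0067 for CAV2, -0.0718 to 0.0752 for CAVIN3, -0.0202 to 0.0235 for DNM2, -0.0174 to 0.0828 for STX6 and -0.1002 to 0.227 for AC068733.3, and TES was at 0.0315 under quantile normalization and at 0.0182 when mitochondrial and abundant RNAs were left out of the scaling. With 1 library left out, 1442 to 1539 of all tested genes were called higher and 1773 to 2221 lower (2811 and 3184 with all), and calls numbered 1 to 2 of 2 among relatives, 1 to 3 of 4 among partners and 5 to 7 of 11 among clathrin genes. Such fits have fewer samples, and the lone library is assumed to vary like the other group. Without the mean-variance trend 7 clathrin genes were called, and the cause was not tested. The titles share replicate numbers without saying that a number marks a shared culture or day, and deviations of same-numbered libraries correlated at r = -0.0425 across genes. With number as a replicate block, 2492 genes were called higher and 2883 lower, CAV1 (adjusted p = 0.000865) and CAVIN1 (0.00179) stayed called lower, and CAV2, CAVIN3, EHD2 and PACSIN2 were not called. Depth is known only in relative terms and 2 libraries per group limit precision, so the 4 genes that missed the threshold are not shown to be unchanged.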
